A study of Danio rerio with 8 samples.

Results

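The enzymes described here attach a sugar acid, glutathione or sulfate to small molecules. They are the UDP-glucuronosyltransferases (UGT), the glutathione S-transferases (GST) and the cytosolic sulfotransferases (SULT). Every entry of the authors' gene symbol column that begins with *ugt* or *sult* and a digit, or with *gst* and a letter, was taken as a member. An entry is the symbol, or the set of symbols, that a transcript cluster of the array stands for. The rule found 59 clusters with 54 different entries among the 23479 entries with a symbol, of which 23 were UGT, 15 GST and 16 SULT, and the brightest cluster over all 8 arrays stood for each entry. Of these, 40 entries named 1 gene and 14 named several close paralogs, so that the signal of the latter cannot be given to 1 gene.

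Liver RNA of adult zebrafish of the AB wild-type strain was hybridised to ZebGene 1.1 ST arrays. In each of 2 batches, 2 fish fed with oligo-fucoidan (OF), a low molecular weight seaweed polysaccharide, were set beside 2 control fish, and each array held 1 fish. The OF fish received 300 mg/kg by oral gavage in 3 doses each week over 1 month, and the controls are labelled as untreated (mock). The methods put the fish at 5 months at the start and the labels at 6 months, and neither names their sex. All groups are wild type. A whole liver sample holds all cell types of the organ, so fewer cells of a type and less RNA per cell cannot be told apart.

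Conjugation is the second step in the handling of foreign and endogenous lipophilic compounds by the liver, after oxidation by cytochromes. UGT enzymes sit in the endoplasmic reticulum and use UDP-glucuronic acid, GST enzymes are mostly cytosolic and use glutathione, and SULT enzymes are cytosolic and use the activated sulfate PAPS. Their substrates in vertebrates include bilirubin, bile acids, steroid hormones, thyroid hormones, drugs and reactive electrophiles, and the products leave the hepatocyte through ABC transporters. Fish carry expanded sets of these genes in tandem clusters, among them the UGT5 family, which mammals lack.

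The array medians over all clusters lay between 2.11 and 2.13 in batch 1 and between 2.54 and 2.63 in batch 2 (log2 signal), so changes with OF were taken within a batch, and levels set side by side across batches carry this shift. Replicates of a group correlated at r = 0.929 to 0.964 across clusters, the lowest value being that of the OF pair of batch 1. The median of the 8 hepatocyte markers was bright on every array, between 11.79 and 12.69. Single markers could be dimmer, and *serpina1* ranged from 4.2 (OF replicate 1, batch 1) to 11.78 (OF replicate 2, batch 2). With OF the median change of this list was -0.3 (batch 1) and 0.38 (batch 2), the same directions as for the conjugating enzymes below. No hepatocyte marker met the thresholds given below in either batch. The vitellogenin *vtg2*, an egg yolk precursor made by the liver under estrogen, read 1.56 and 2.23 in the controls of batch 1 and 12.74 and 13.30 in the OF fish of batch 1. In batch 2 it read 13.41 and 13.55 in the controls, 13.52 in OF replicate 1 and 1.27 in OF replicate 2. Thus the controls of batch 1 and OF replicate 2 of batch 2 stood apart from the 5 other arrays, so that in batch 1 the controls and in batch 2 an OF fish were the low ones. The estrogen receptor *esr1* followed the same order, with 4.53, 4.16, 7.63 and 8.97 in batch 1 and 10.70, 10.61, 10.55 and 5.16 in batch 2 (controls first). Of the 6 ovary markers, all 6 met the thresholds given below as higher in batch 1 and 0 did in batch 2, and their summed linear signal was 23 and 28 in the controls of batch 1, 1501 and 418 in its OF fish, 56 and 137 in the controls of batch 2 and 157 and 25 in its OF fish. Erythrocyte markers went the other way, with *alas2* at 7.07, 6.41, 4.65 and 4.46 in batch 1 and 6.00, 5.62, 6.59 and 8.01 in batch 2. The trypsin gene *prss59.1*, a mark of pancreas tissue, was at 2.62 in OF replicate 1 of batch 1 and between 8.89 and 10.79 on the other 7 arrays. Of the 5 intestinal markers 0 were called in either batch, and 4 of them (*vil1*, *fabp6*, *slc15a1b* and *apoa4b.2*) stayed between 1.04 and 2.83 on all arrays. The other, *fabp2*, read 4.33, 5.46, 5.74 and 3.26 in batch 1 and 9.11, 7.79, 7.73 and 4.77 in batch 2. In batch 1 the thresholds were also met by 1 of 4 endothelial markers (*kdrl*, -1.28), 1 of 3 stellate cell markers (*colec11*, -2.10) and 1 of 4 biliary markers (*epcam*, 1.17), and by 0 of these lists in batch 2. Of the macrophage and neutrophil markers 0 were called. The neutrophil gene *lyz* was at 6.28 in OF replicate 1 of batch 1 and between 1.73 and 2.65 elsewhere, and *mmp9* was also highest on that array (3.04). By contrast, *mpx* and *mmp13a* were highest in OF replicate 2 of batch 1 (5.71 and 4.28), where *mpx* was also at 4.65 in control replicate 2. The part of these other signals in the results below was not tested.

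Each family of conjugating enzymes held both bright and dim entries. Over the 8 arrays, 27 of 54 entries had a mean log2 signal above 5, a share of 50.0% beside 29.7% of all entries with a symbol. The GST family held the brightest entries, 7 of 15 above 5, and the UGT family the largest number, 15 of 23, whereas 5 of 16 SULT entries passed that level. The median entry stood at 5.73 for UGT, 4.45 for GST and 3.93 for SULT, beside 3.25 over all entries. Signals of different clusters come from different probes, so their order is a rough one.

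Among the GST genes, *gstr* was the brightest, with a mean of 10.81. It encodes the rho class enzyme of fish, and it read 10.86 and 10.60 in the controls and 9.67 and 9.97 in the OF fish of batch 1, but 11.41, 11.34, 11.31 and 11.35 in batch 2. *gstp1*, of the pi class (now *gstp1.2* in RefSeq), followed with 9.60, while its neighbour *gstp2* (now *gstp1.1*) stayed at 1.67. The theta class pair *gstt1a* and *gstt1b* had means of 8.62 and 7.13, and *gstz1*, the maleylacetoacetate isomerase of tyrosine breakdown, had 7.73. The mu class genes *gstm.1*, *gstm.2* and *gstm.3* ranged from 3.75 to 6.31, and the kappa class entry *gstk1* stood at 5.34. Alpha and omega class entries were dim, between 1.22 and 2.79.

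Of the sulfotransferases, *sult1st3* was the brightest with 8.68, followed by *sult3st1* with 7.68, *sult1st6* with 7.34, *sult1st4* with 7.29 and *sult1st1* with 5.33. SULT1 enzymes sulfate phenols, among them estrogens and thyroid hormones, and SULT2 enzymes sulfate hydroxysteroids. The 3 SULT2 entries lay between 3.60 and 3.98. *sult3st1* was uneven within the controls of batch 1, at 3.45 and 7.76, which was the widest gap between the 2 fish of a group among all 54 entries.

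In the UGT family the entry shared by 6 genes of the *ugt1a* locus was the brightest, with a mean of 7.85. These genes join different first exons to common ones, and the mammalian locus of this family glucuronidates bilirubin. *ugt5c2* had 7.55, *ugt2b3* 6.95, *ugt8* 6.85 and the entry shared by *ugt2a1* to *ugt2a4* 6.72. Mammalian UGT2 enzymes act on steroids and bile acids, and UGT8 of mammals makes galactosylceramide. The 13 UGT5 entries, on 6 chromosomes, spanned 1.71 to 7.55.

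**Figure D1:**
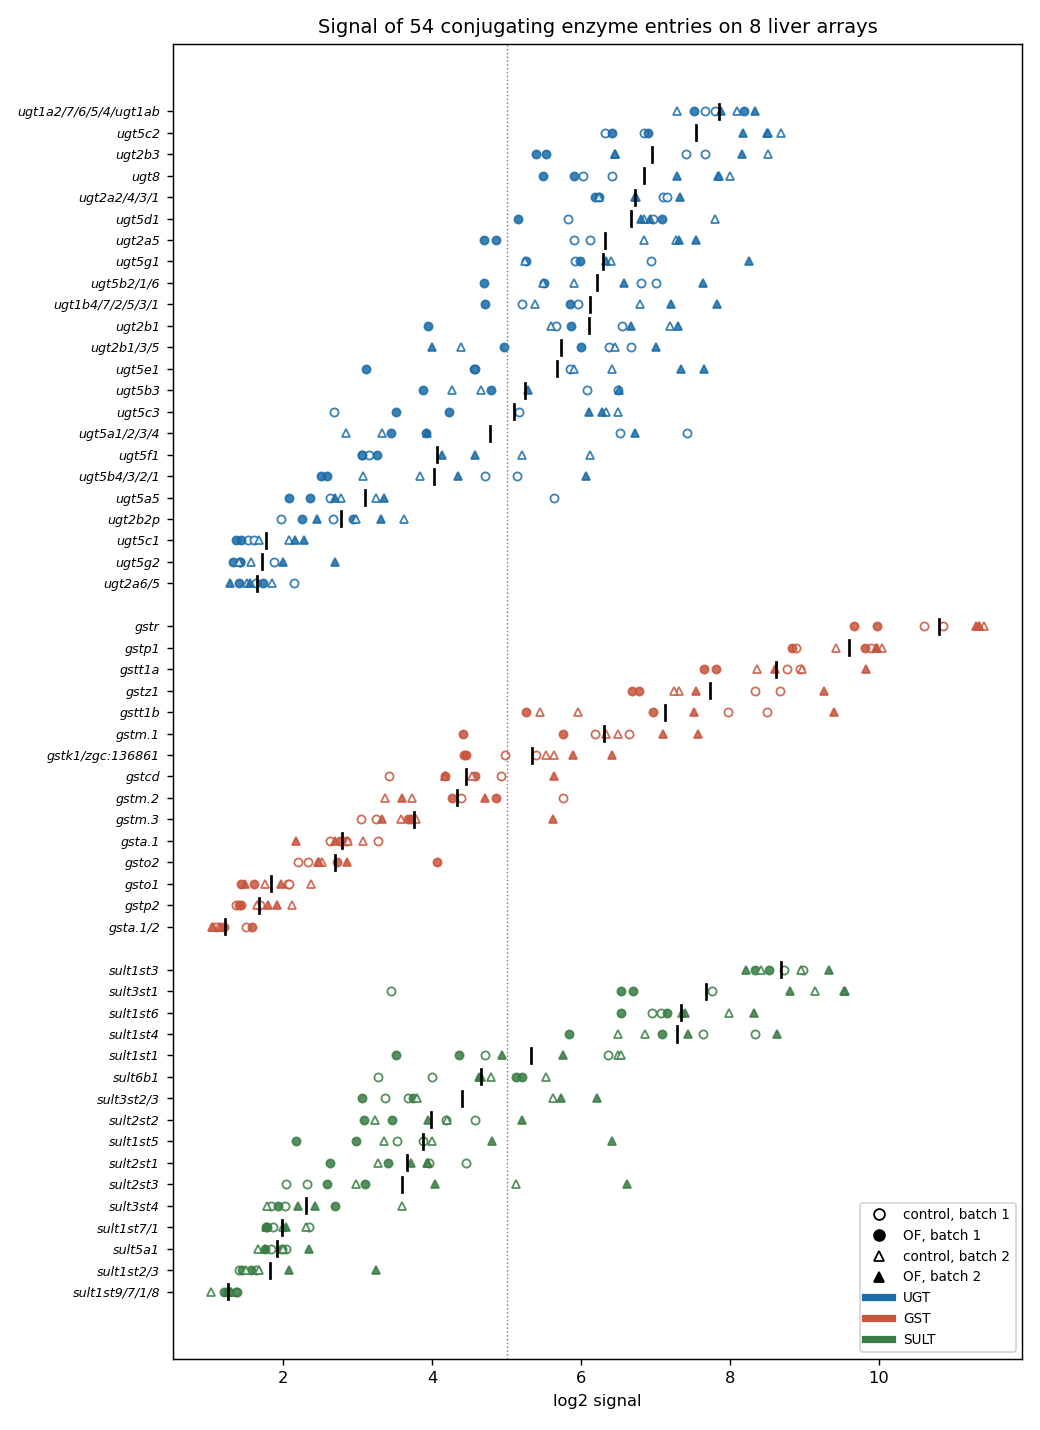
Log2 signal (x axis) of each of the 54 entries (rows, grouped by family and sorted by mean) on the 8 arrays; circles are batch 1 and triangles batch 2, open symbols are controls and filled symbols OF fish, the black bar is the mean of 8 arrays and the dotted line marks a signal of 5. *gstr* sits highest with a mean of 10.81, and many UGT and GST entries have the filled circles at the low end of their range.

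In batch 1 the conjugating enzymes were mostly lower in OF fish than in controls. The comparison asks which genes differ between OF-fed and control livers of that batch, and a gene was called where it met what the methods ask for, a change of more than 2-fold with p below 0.05 before adjustment, here from limma. Of the UGT entries 6 of 23 were called lower and 0 higher, of the GST entries 3 of 15 were called lower and 0 higher, and of the SULT entries 4 of 16 were called lower and 1 higher. The 13 entries called lower make 24.1% of the 54, whereas 4.59% of all entries were called lower and 4.94% higher in this batch. The mean was lower in OF fish for 42 of 54 entries, beside 12086 of all 23479 entries. The median change was -0.81 (log2) for UGT, -0.51 for GST and -0.14 for SULT, beside -0.01 over all entries. Bright entries are called more often. Above a mean signal of 5, 8 of 27 members (29.6%) and 10.5% of all entries were called lower. At that level 0 members and 5.84% of all entries were called higher. No member passed the Benjamini-Hochberg adjustment over all clusters, the lowest adjusted p being 0.153, and 0 of 59300 clusters passed it in this batch.

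In batch 2 more members were called higher than lower in OF fish. Of the UGT entries 3 were called higher and 1 lower, of the GST entries 1 higher and 0 lower, and of the SULT entries 2 higher and 1 lower. The 6 entries called higher are 11.1% of the members, whereas 3.26% of all entries were called higher and 4.84% lower. Above a mean signal of 5 the higher calls were 5 of 27 members (18.5%) and 6.17% of all entries. The median change was 0.36 for UGT, 0.55 for GST and 0.20 for SULT, beside 0.03 over all entries. Means were higher with OF for 37 of 54 members, beside 12375 of all 23479 entries. The lowest adjusted p of a member was 0.279. The pair of OF fish was unequal here. OF replicate 2, the array with *vtg2* at 1.27, read above OF replicate 1 for 41 of 54 members (75.9%), in contrast to 52.0% of all entries. It did so for 20 of 23 UGT entries (87.0%), 12 of 16 SULT entries (75.0%) and 9 of 15 GST entries (60.0%), the last share being the nearest to that of all entries.

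Whether the change with OF differed between the batches was tested as an interaction. It had an unadjusted p under 0.05 for 20 of 54 entries (37.0%), beside 19.6% of all entries, and in 18 of them (33.3% of the members, beside 9.6% of all entries) the batch 2 change lay above the batch 1 change. After adjustment the lowest p was 0.134, so no member passed, while 1 of all entries did. For 14 entries (25.9%) both OF arrays lay below both controls in batch 1 and above both in batch 2, which held for 7.57% of all entries. These were 8 UGT, 4 GST and 2 SULT entries, and OF replicate 2 of batch 2 was the higher of the OF pair in 12 of them. Of the 14, 9 had a mean signal above 5. Members are brighter than all entries, and the shares over all entries in this paragraph were not matched for signal. The 5 entries called lower in batch 1 and higher in batch 2 were *gstt1b*, *sult1st4*, *sult1st5*, *ugt5b3* and the entry shared by *ugt5b2*, *ugt5b1* and *ugt5b6*, and such a pair of calls was made for 0.635% of all entries. No member was called in the same direction in both batches.

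**Figure D2:**
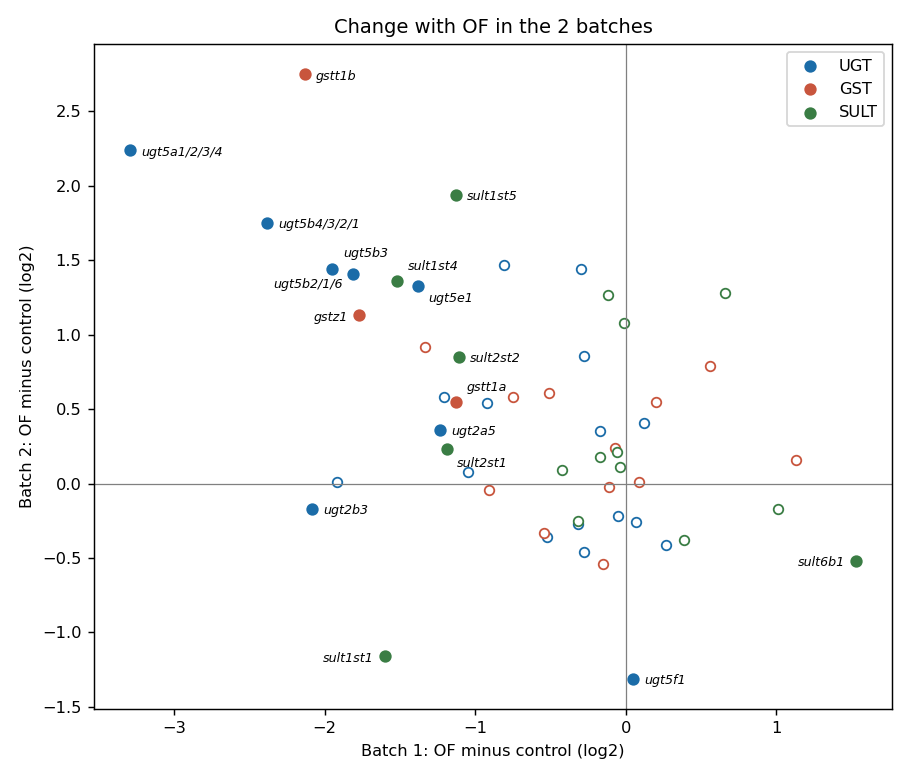
Change with OF (OF minus control, log2) in batch 1 (x axis) and batch 2 (y axis) for the 54 entries, coloured by family; filled and labelled points were called in at least 1 batch and open points in neither. The upper left part, lower in batch 1 and higher in batch 2, holds 31 entries (57.4%, beside 31.7% of all entries with a symbol). *sult1st1* is the called entry farthest into the lower left.

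Fitting both batches together, with batch as a term, gave few differences. Of the UGT entries 1 and of the SULT entries 1 had an unadjusted p under 0.05, both lower, and 0 GST entries did, whereas 2.66% of all entries were lower and 2.71% higher at that threshold. The lowest adjusted p was 0.955 for the members and also for all entries. *sult1st1*, which sulfates phenols, was the clearest of them. It read 6.36 and 4.71 in the controls and 4.36 and 3.51 in the OF fish of batch 1, then 6.50 and 6.53 in the controls and 4.94 and 5.76 in the OF fish of batch 2, so that OF and control arrays did not overlap in either batch. Such a position below the controls in both batches was held by 2.61% of all entries. The change was -1.38 over both batches (adjusted p = 0.955), -1.60 ± 0.68 (SE) in batch 1, where it was not called, and -1.16 ± 0.33 in batch 2, where it was called lower (adjusted p = 0.395). The batch 2 call was lost without control replicate 1 (a change of -1.17), control replicate 2 (-1.14) or OF replicate 1 (-0.75), and with the spread shared over both batches. *ugt8* was the other entry, at 6.42, 6.02, 5.49 and 5.91 in batch 1 and 8.0, 7.85, 7.29 and 7.84 in batch 2 (controls first), with a change of -0.44. It no longer had a p under 0.05 when any array was left out, with changes of -0.51 to -0.34, except OF replicate 2 of batch 2 (-0.57). *gstr* (-0.48) and *gsto1* (-0.44) were the GST entries with the smallest p, and *ugt5f1* (-0.63) and the entry of *sult1st7* and *sult1st1* (-0.29) the next of the other families, all with p above 0.05 before adjustment. *gsto1*, of the omega class, and the *sult1st7* entry were dim, with means of 1.84 and 1.98.

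Within the UGT family the largest differences were in the UGT5 genes. Of 13 UGT5 entries, 4 were called lower in batch 1 and 3 higher in batch 2, with median changes of -0.81 and 0.86. Over all entries 4.59% were called lower in batch 1 and 3.26% higher in batch 2. Of the 14 entries apart lower in batch 1 and higher in batch 2, 7 were UGT5, and 7.57% of all entries lay apart in this way. Entries that share *ugt5b* genes are among the calls of both batches, so these counts are not of independent genes. The entry shared by *ugt5a1*, *ugt5a2*, *ugt5a3* and *ugt5a4* on chromosome 25 read 7.42 and 6.52 in the controls and 3.91 and 3.45 in the OF fish of batch 1. In batch 2 it read 3.33 and 2.84 in the controls, 3.93 in OF replicate 1 and 6.73 in OF replicate 2. The 3 high arrays were thus the same 3 on which *vtg2* was low. The change was -3.29 ± 0.39 in batch 1, called lower (adjusted p = 0.178), a 9.76-fold lower signal, and 2.24 ± 0.98 in batch 2, which was not called. These 2 changes differed by 5.53 (adjusted p = 0.155). The neighbouring *ugt5a5* was high on 1 array only, with 5.64 in control replicate 1 of batch 1 and 2.07 to 3.35 on the others.

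On chromosome 1, 3 entries cover the *ugt5b* genes, and since they name some of the same genes they are not independent. The entry shared by *ugt5b4*, *ugt5b3*, *ugt5b2* and *ugt5b1* read 5.14, 4.71, 2.50 and 2.58 in batch 1 and 3.84, 3.07, 4.35 and 6.06 in batch 2, controls first. Its change was -2.38 ± 0.22 in batch 1, called lower (adjusted p = 0.153), and 1.75 ± 0.66 in batch 2, not called. For *ugt5b3* alone the signals were 6.49, 6.08, 4.79 and 3.88 in batch 1 and 4.66, 4.26, 5.28 and 6.51 in batch 2. The OF arrays were lower than both controls in batch 1 and higher than both in batch 2 for all 3 entries, and the OF pair was wider apart in batch 2. *ugt5b3* fell by 1.95 ± 0.39 in batch 1 (adjusted p = 0.278) and rose by 1.44 ± 0.47 in batch 2 (adjusted p = 0.452). The entry shared by *ugt5b2*, *ugt5b1* and *ugt5b6*, at 7.01, 6.81, 5.50 and 4.70 in batch 1 and 5.90, 5.49, 6.58 and 7.64 in batch 2, fell by 1.81 ± 0.34 (adjusted p = 0.258) and rose by 1.41 ± 0.43 (adjusted p = 0.416). Without OF replicate 2 of batch 2, the rises of these 2 entries were 0.82 and 0.88 and neither was called. Neither was called without control replicate 1 or 2 of batch 2 either (1.21 to 1.63), nor was the fall of *ugt5b3* in batch 1 without control replicate 1 (-1.74).

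Of the other UGT5 genes, *ugt5e1* ran the same way as the *ugt5b* entries, while *ugt5f1* and *ugt5c2* did not. *ugt5e1* read 4.57, 5.85, 4.56 and 3.11 in batch 1 and 6.42, 5.91, 7.34 and 7.65 in batch 2. Its OF arrays lay below both controls in batch 1, 1 of them only just, and above both in batch 2. *ugt5e1* changed by -1.38 ± 0.71 in batch 1, not called, and rose by 1.33 ± 0.28 in batch 2 (adjusted p = 0.279). Its rise was 1.18 without OF replicate 2 and was still called, but it was not called with the spread shared over both batches. *ugt5f1* on chromosome 18 was near 3 on all arrays of batch 1, between 3.05 and 3.26, and read 6.12, 5.21, 4.58 and 4.13 in batch 2. Of the 23 UGT entries it alone was called lower in batch 2, where it fell by 1.31 ± 0.39 (adjusted p = 0.411), and the call was lost without control replicate 1 (-0.85) and without OF replicate 2 (-1.08). *ugt5c2*, the brightest UGT5 entry, changed by 0.07 and -0.26 in the 2 batches and was not called in either.

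UGT2 genes, all on chromosome 5, were lower in batch 1 for 6 of 7 entries by their means, beside 12086 of all 23479 entries. None of them was called in batch 2. *ugt2b3* read 7.67 and 7.41 in the controls and 5.40 and 5.53 in the OF fish of batch 1, a change of -2.08 ± 0.19 (adjusted p = 0.153). In batch 2 its signals were 6.45 and 8.51 in the controls and 6.45 and 8.16 in the OF fish, so each group held a high and a low fish and the groups overlapped. *ugt2a5* stood at 6.12, 5.91, 4.86 and 4.69 in batch 1 and 6.85, 7.27, 7.31 and 7.54 in batch 2, and it fell by 1.23 ± 0.19 in batch 1 (adjusted p = 0.226). A second, dimmer cluster of *ugt2a5*, with a mean of 4.83, changed by -0.34 in batch 1, and the mean of both clusters was not called (-0.79). The shared entry of *ugt2a1* to *ugt2a4* changed by -0.92 ± 0.17 in batch 1, short of the fold threshold. The *ugt1a* entry, the brightest of the family, ranged from 7.29 to 8.33 on the 8 arrays with overlapping groups in both batches, and changed by 0.12 and 0.41. In all, 15 UGT entries were called in neither batch, with changes between -1.92 and 0.27 in batch 1 and between -0.46 and 1.47 in batch 2. Among these, *ugt2b1* changed by -1.21 in batch 1 on its brightest cluster (mean 6.10). Its second, dimmer cluster (mean 3.55) fell by 1.47 in batch 1 and met the thresholds.

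**Figure D3:**
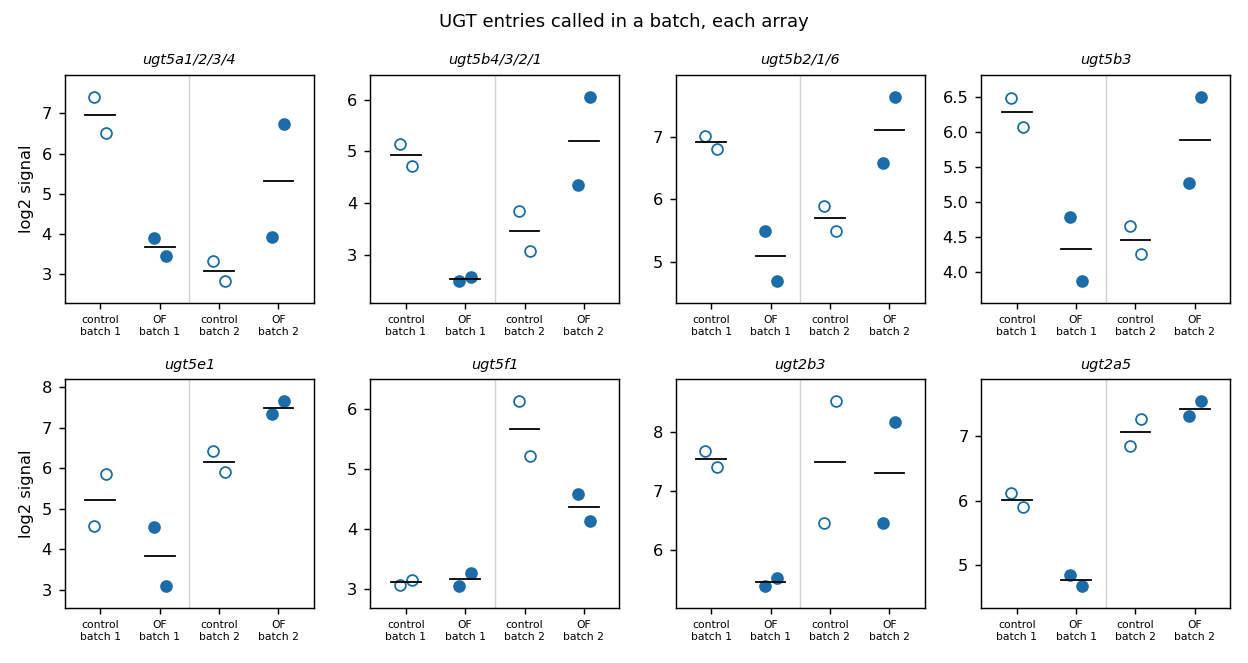
Log2 signal (y axis, scaled per panel) of the 8 UGT entries called in batch 1 or batch 2 in each of 4 groups of 2 arrays; open circles are controls, filled circles OF fish, and the bar is the group mean. The *ugt5a* and *ugt5b* panels fall in batch 1. In batch 2 both of their OF fish lie above both controls, with OF replicate 2 the higher, while *ugt5f1* is lower with OF in batch 2 only.

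In the GST family the theta class gene *gstt1b* had the largest differences. Its signals were 7.97 and 8.50 in the controls and 6.96 and 5.26 in the OF fish of batch 1, and 5.96 and 5.45 in the controls and 7.51 and 9.40 in the OF fish of batch 2. The groups did not overlap in either batch, and the order of OF and control was opposite. The change was -2.13 ± 0.65 in batch 1 (adjusted p = 0.409) and 2.75 ± 0.69 in batch 2 (adjusted p = 0.333), a 4.37-fold lower and a 6.73-fold higher signal, both called. These changes differed by 4.88 (adjusted p = 0.155). Without OF replicate 2 of batch 2 the rise was 1.80 and was still called. The batch 1 call was lost without control replicate 1 or 2 (changes of -2.39 and -1.86), and the batch 2 call without control replicate 2 (2.49).

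*gstz1* and *gstt1a* were the other GST entries called, both lower in batch 1. *gstz1* read 8.67, 8.33, 6.68 and 6.78 in batch 1, controls first, with a change of -1.77 ± 0.21 (adjusted p = 0.178), and 7.32, 7.25, 7.55 and 9.26 in batch 2, where the change of 1.13 ± 0.60 was not called. In batch 2 its OF replicate 1 lay just above the controls and OF replicate 2 far above them. *gstt1a* read 8.76, 8.94, 7.65 and 7.81 in batch 1, a change of -1.13 ± 0.18 (adjusted p = 0.233), and 8.97, 8.36, 8.61 and 9.83 in batch 2. With quantile normalization its change was -0.93, under the fold threshold. The mu class gene *gstm.1* and the kappa class entry *gstk1* had their arrays apart in the same opposite way, with changes of -1.33 and 0.92 and of -0.75 and 0.58, and neither was called. The bright *gstp1* changed by -0.07 and 0.24, with overlapping groups in both batches. The remaining 9 GST entries, *gstr* among them, were called in neither batch. Another of these, *gstcd*, changed by 0.55 in batch 2 on its brightest cluster (mean 4.45). Its second cluster (mean 4.13) rose by 1.25 in batch 2 and met the thresholds.

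Of the SULT genes, *sult1st4* and *sult1st5* were called lower in batch 1 and higher in batch 2. *sult1st4* on chromosome 8 read 7.64, 8.33, 5.84 and 7.09 in batch 1 and 6.86, 6.49, 7.43 and 8.63 in batch 2. It fell by 1.52 ± 0.53 (adjusted p = 0.459) and rose by 1.36 ± 0.46 (adjusted p = 0.468). *sult1st5* on chromosome 23 read 3.87, 3.53, 2.97 and 2.17 in batch 1 and 3.99, 3.35, 4.80 and 6.41 in batch 2, and it fell by 1.13 ± 0.35 (adjusted p = 0.411) and rose by 1.94 ± 0.61 (adjusted p = 0.432). Within batch 2 both genes were highest in OF replicate 2. Leaving out that array gave a rise of 0.76 for *sult1st4*, not called, and of 1.13 for *sult1st5*, called. Each of these 4 calls was also lost without either control of its batch (falls of -1.87 to -0.96, rises of 1.17 to 2.26), the fall of *sult1st4* without OF replicate 1 of batch 1 (-0.90), and the fall of *sult1st5* without OF replicate 2 of batch 1 (-0.73). The fall of *sult1st4* was also not called with quantile normalization (-1.41), nor that of *sult1st5* with the spread shared over both batches.

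The SULT2 genes, which act on hydroxysteroids, were low in signal. *sult2st2* read 4.19, 4.57, 3.46 and 3.08 in batch 1 and 4.20, 3.23, 3.94 and 5.20 in batch 2, and it fell by 1.11 ± 0.25 in batch 1 (adjusted p = 0.304). *sult2st1* read 3.96, 4.45, 3.41 and 2.62 in batch 1 and 3.93, 3.27, 3.72 and 3.94 in batch 2, and it fell by 1.19 ± 0.37 in batch 1 (adjusted p = 0.414). In batch 2 the groups of both genes overlapped. The fall of *sult2st2* was no longer called without control replicate 2 or OF replicate 2 (changes of -0.92 each) or with the spread shared over both batches, and that of *sult2st1* without control replicate 1 or 2 (-1.43 and -0.94) or OF replicate 2 (-0.79). *sult6b1* read 4.0, 3.27, 5.13 and 5.20 in batch 1 and 4.79, 5.53, 4.63 and 4.65 in batch 2, was the only member called higher in batch 1 (1.53 ± 0.31, adjusted p = 0.277), and its batch 2 change minus its batch 1 change was -2.05 (adjusted p = 0.160). The bright *sult1st3*, *sult1st6* and *sult3st1* were called in neither batch, with changes of -0.42, -0.17 and 1.01 in batch 1 and 0.09, 0.18 and -0.17 in batch 2. They are among 10 SULT entries called in neither batch.

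**Figure D4:**
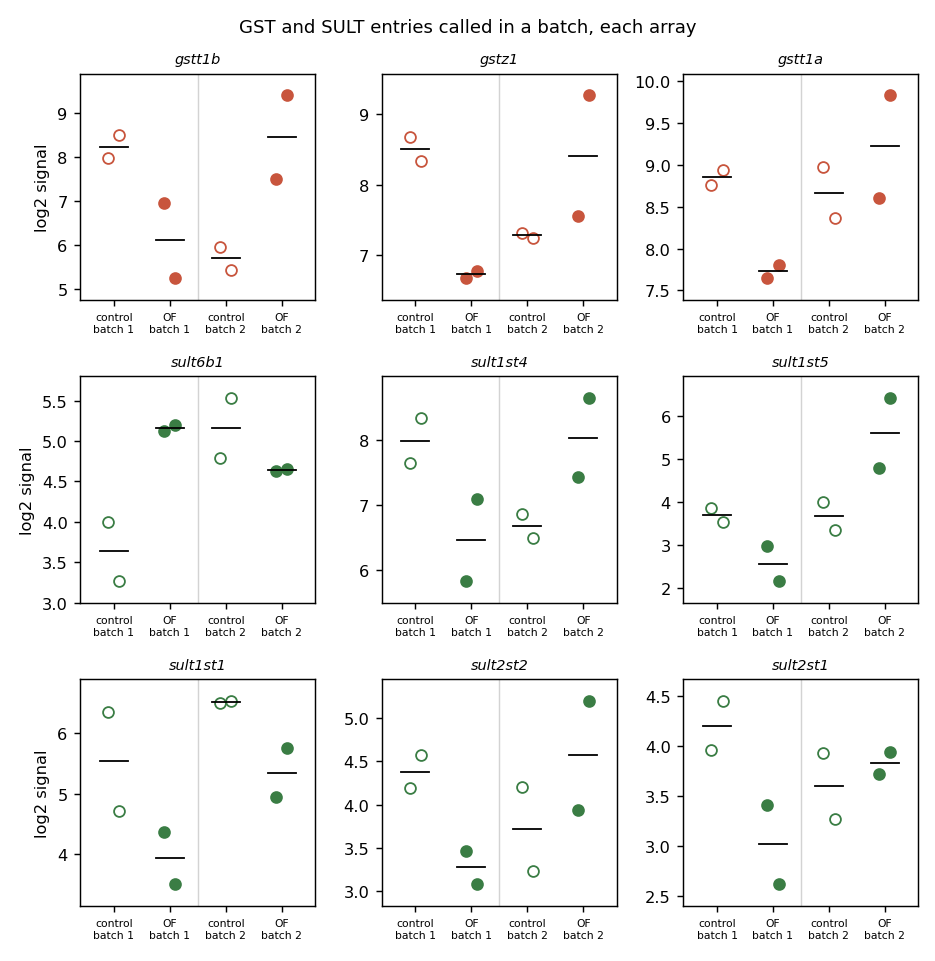
Log2 signal (y axis, scaled per panel) of the 3 GST entries and 6 SULT entries called in batch 1 or batch 2 in each of 4 groups of 2 arrays; open circles are controls, filled circles OF fish, and the bar is the group mean. *gstt1b*, *sult1st4* and *sult1st5* are lower with OF in batch 1 and higher in batch 2, *sult1st1* is lower in both, and *sult6b1* is higher in batch 1.

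The counts of calls by family moved with single arrays. In batch 1 the GST count was 5 without OF replicate 2, and the SULT count was 2 without OF replicate 2 and 3 without control replicate 1 or 2. Without OF replicate 2 of batch 1, 11.3% of all entries were called higher and 6.63% lower, so the background moved as well. In batch 2 the UGT count was 7 without OF replicate 1 and 2 without OF replicate 2 or control replicate 1, and the GST count was 5, 3 and 0 without OF replicate 1, OF replicate 2 and control replicate 2. Over all entries the calls without OF replicate 1 of batch 2 were 7.69% higher and 5.92% lower, above the shares with all arrays, while without its OF replicate 2 they were 3.45% and 5.4%. The SULT count of batch 2 was 1 without control replicate 1 or 2. The direction of the calls without OF replicate 2 of batch 2 was unchanged for GST (3 higher, 0 lower) and was 2 higher and 0 lower for UGT and 1 higher and 1 lower for SULT.

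The genes that supply the cofactors did not follow one course. Of 12 measured genes of cofactor supply, 1 was called lower in batch 1 and 4 lower in batch 2, and 0 were called higher in either, with median changes of -0.31 and -0.48. Over all entries 4.59% were called lower in batch 1 and 4.84% in batch 2, and 10.5% in each batch above a mean signal of 5. The sulfate donor PAPS is made by the PAPS synthases, and their 3 genes differed. *papss2a* read 8.16 and 8.12 in the controls and 5.75 and 5.75 in the OF fish of batch 1, a change of -2.38 (adjusted p = 0.122), and 7.79, 7.63, 7.83 and 8.90 in batch 2. *papss2b* read 8.73 and 8.85 in the controls and 5.45 and 5.97 in the OF fish of batch 2, a change of -3.08 (adjusted p = 0.198), and 6.44, 3.34, 5.24 and 3.76 in batch 1, where the groups overlapped. Both OF fish of batch 2 lay below the controls of their batch in *papss2b*, but not below all arrays of batch 1. These 2 fish differed in *vtg2*, and its part in the *papss2b* change was not tested. *papss1* fell by 1.19 in batch 2 (adjusted p = 0.394), as did *slc35d1a*, a carrier of UDP-sugars into the endoplasmic reticulum (1.21, adjusted p = 0.277), and *impad1*, a phosphatase of the spent sulfate donor (1.27, adjusted p = 0.369). *ugdh*, which makes UDP-glucuronic acid, changed by -0.02 and -0.60 and was not called.

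**Figure D5:**
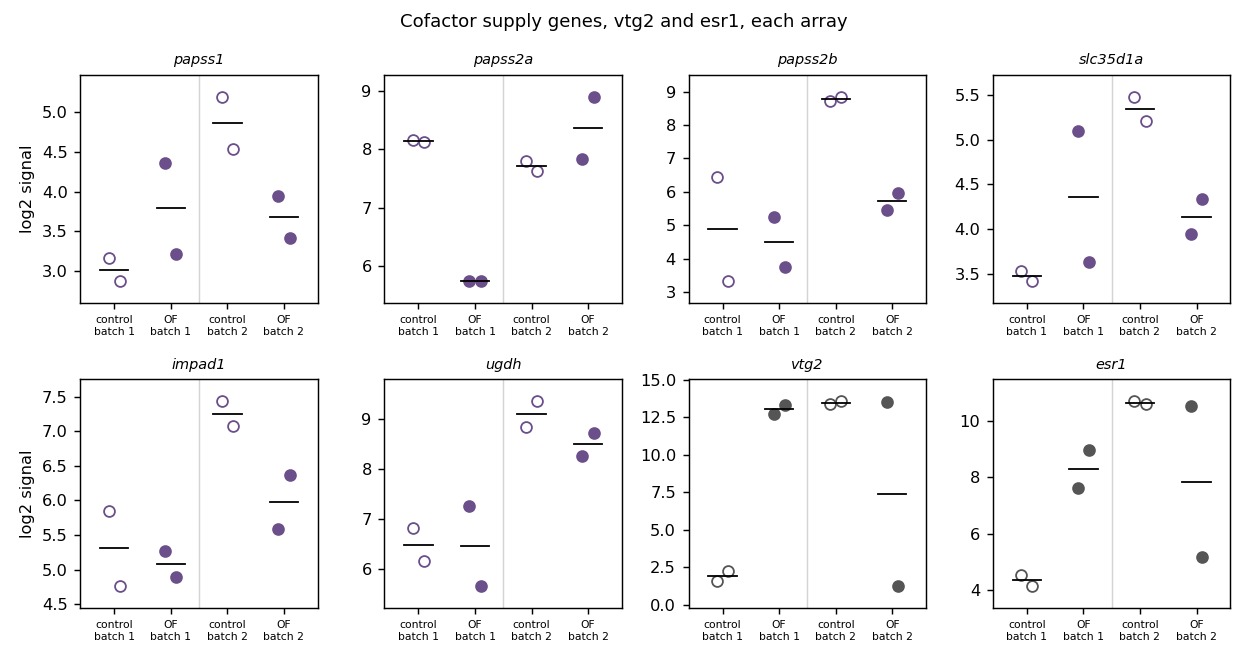
Log2 signal (y axis, scaled per panel) of 6 cofactor supply genes and of *vtg2* and *esr1* in each of 4 groups of 2 arrays; open circles are controls, filled circles OF fish, and the bar is the group mean. Within its batch, *papss2a* is lower in the OF fish than in the controls of batch 1, and *papss2b* in those of batch 2. *vtg2* is low in the controls of batch 1 and in 1 OF fish of batch 2.

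Glutathione metabolism showed few calls. Of 15 measured genes of glutathione synthesis and recycling, 1 was called lower in batch 1 and 0 in batch 2 (4.59% and 4.84% over all entries). The list's median changes were -0.13 and -0.28. The gene called was *chac1*, which breaks glutathione down, at 11.87, 10.20, 9.25 and 8.27 in batch 1 (adjusted p = 0.413). The limiting enzyme subunits *gclc* and *gclm* changed by 0.04 and 0.08 in batch 1 and by -1.01 and -0.86 in batch 2 and were not called. Over both batches 2 of the 15 genes had an unadjusted p under 0.05, both lower. They were *cbsa* (-0.82) and the dim *ggt5a* (-0.35), each with an adjusted p of 0.955. Of the membrane glutathione transferases, which are unrelated in sequence to the soluble GST enzymes, 3 were measured and 0 were called. *mgst1.1* and *mgst1.2* changed by -0.83 and -0.86 in batch 1 and by 0.77 and 0.48 in batch 2, and for both the change differed between batches before adjustment (adjusted p = 0.157 and adjusted p = 0.162).

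Some exporters of conjugates and some enzymes that remove the conjugated group were called lower in batch 1. Of 14 transporters, 3 were called lower in batch 1 and 0 in batch 2. Over all entries 4.59% were called lower in batch 1, and 10.5% above a mean signal of 5. The 3 transporters were *abcc4*, *abcc5* and *abcg2c*, with changes of -3.15, -1.76 and -1.70 in batch 1 and of 0.87, 0.29 and 0.69 in batch 2. *abcc4* read 8.94, 6.36, 4.78 and 4.22 in batch 1 and 5.20, 3.82, 3.73 and 7.04 in batch 2. *abcc2*, the canalicular pump for conjugates, changed by -1.11 and 0.22 and was not called. Of 4 measured genes of deconjugation, the steroid sulfatase *sts* and the arylsulfatase *arsa* were called lower in batch 1 (-1.62 and -2.85) and 0 in batch 2. In batch 2 *sts* and *arsa* changed the other way, by 0.93 and 1.16. The other measured genes, *arsh* and *gusb*, were not called. *arsh* changed by -0.78 and -0.70 in the 2 batches, and *gusb* by -0.78 and -0.02. Over both batches *arsh* alone of this list had an unadjusted p under 0.05 (-0.74, adjusted p = 0.955).

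Among 17 regulators of these genes, 3 were called lower in batch 1, and 2 higher and 1 lower in batch 2. Over all entries 4.59% were called lower in batch 1, and 3.26% higher and 4.84% lower in batch 2. Above a mean signal of 5 these shares were 10.5%, 6.17% and 10.5%. Lower in batch 1 were *keap1a* (-2.40), the aryl hydrocarbon receptor (Ahr) gene *ahr1a* (-1.17) and the hepatocyte factor *hnf4a* (-1.18). In batch 2 these 3 genes changed by 0.94, 0.89 and -0.97. *keap1a* encodes an electrophile sensor that holds back the transcription factor Nrf2. The related *ahr1b* and *ahr2* were not called in either batch, and *ahr2* changed by -0.17 and 0.37. Higher in batch 2 were the xenobiotic receptor *nr1i2* (1.08) and the bile acid receptor *nr1h4* (1.18), and lower in batch 2 was *mafgb* (-1.43), which encodes a small Maf partner of Nrf2. *hnf4a* read 8.09, 7.26, 6.50 and 6.49 in batch 1 and 8.69, 8.68, 7.28 and 8.15 in batch 2 (controls first). Its change over both batches was -1.08 (limma, unadjusted p = 0.00368, adjusted p = 0.955). Over both batches 2.66% of all entries were lower at an unadjusted p under 0.05. In batch 2 *hnf4a* was not called, as its change of -0.97 (limma, unadjusted p = 0.0444) was short of the fold threshold. Of 10 measured Nrf2 targets, *hmox1a* alone was called, lower in batch 1 (-3.24), and the list's median changes were 0.01 and -0.11. In batch 2 *hmox1a* changed by 3.00 and was not called, with 4.92 in OF replicate 1 and 9.40 in OF replicate 2. Of 4 measured Ahr targets 0 were called in either batch, and *cyp1a* changed by -1.06 and 0.28.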

How the data were processed

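Liver RNA of 8 zebrafish was measured, 2 per group, with groups taken from the sample labels. Normalization was done by the authors with the Transcriptome Analysis Console, by GC count and signal space transformation, and they deposited a log2 signal for each cluster. Their worksheets, deposited as well, hold each group's average intensity and log2 average, which matched the log2 signals to within 0.005, and columns of the authors' own fold changes and p-values, which were not used. No source used here names the build of the cluster positions. Depth has no meaning for arrays, and the number of arrays limits the precision.

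Signals of 59300 clusters, without 84 control clusters, were fitted with limma 3.58.1 (lmFit, eBayes) in R 4.3.3, within each batch, over both batches with batch as a term, and with OF crossed with batch. The adjustment was Benjamini-Hochberg over all clusters. Calls within a batch use the fold and p limits of the methods. Counts use 1 cluster per entry, the brightest. Fits were tested on simulated data. Same-numbered fish correlated in their deviations at 0.113 in batch 1 and -0.0727 in batch 2, so numbers do not pair fish. Named members are, per family, the 5 brightest, up to 4 called per batch and direction, those called in both batches, and the 2 with the smallest p over both batches and for the difference between batches. The rest are given in counts and were named for their class, their neighbours or their arrays after their values were seen. The members and gene lists were chosen with earlier results of these data known. In the list of regulators, 1 gene is not reported here and was left out of its counts. RefSeq's gene table (GRCz12tu) held 37 of the 40 single symbols and gave a newer name for 2 of them. Python 3.11.15 with pandas 2.3.3 and matplotlib 3.10.9 served for tables and figures.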

Additional observations from a re-analysis of the deposited data

Results flagged for a closer look

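In 15 entries the OF arrays lay apart from the controls in opposite directions in the 2 batches. Of these, 14 were lower in batch 1 and higher in batch 2, and 1 ran the other way. Over all 23479 entries the counts were 1778 and 1478. The difference between the changes (batch 2 minus batch 1, log2) was 5.53 for the shared *ugt5a1* entry, 4.88 for *gstt1b*, 4.13 for the shared *ugt5b4* entry, 3.39 for *ugt5b3* and 3.23 for the shared *ugt5b2* entry. It was 3.07 for *sult1st5*, 2.89 for *gstz1*, 2.88 for *sult1st4*, 2.71 for *ugt5e1* and 2.25 for *gstm.1*. Smaller differences were found for *ugt2a5* (1.59), *gstk1* (1.32), *ugt5g2* (1.14) and *ugt5c1* (0.52). *sult6b1* ran the other way (-2.05). Before adjustment 14 of the 15 had p under 0.05 in limma, all except *ugt5c1*. The entries were picked for lying apart in opposite directions, so this count is no separate support. None passed the adjustment over all clusters (adjusted p between 0.134 and 0.481). On OF replicate 2 of batch 2, *vtg2* was at 1.27 and *esr1* at 5.16, and their part in these differences was not tested.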

How the results depend on the processing

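All 34 changes of named entries that were called or ranked kept their direction under all alternatives run. The intensity trend, the replicate block and the shared spread alter only the error of a change, so they could not turn its direction. The entries had also been picked for their calls or ranks. Of 362 alternative values 302 stayed on the same side of the threshold, 53 no longer met it and 7 newly met it. The median signals of the families moved by less than the spread between replicates. At an adjusted p under 0.05 the counts were 0 in batch 1, in batch 2 and for the difference between batches, for each family. With the fold over 2 alone, 10 UGT, 5 GST and 7 SULT entries passed in batch 1 and 8 UGT, 2 GST and 6 SULT entries in batch 2. The share of all entries passing the fold alone was not counted, so these counts say nothing particular to the families. With the spread shared over both batches the GST count of batch 1 was 5. Over all entries that setting called 6.35% higher and 4.51% lower in batch 1. The fits were also run again on only the clusters with a mean signal of at least 5. The SULT count of batch 1 was then 2, whereas the fits of all clusters called 1 SULT entry above that signal. Over all entries this setting called 6.14% higher and 10.7% lower in batch 1. Its counts for the difference between batches were 5 UGT and 1 SULT. Over both batches the UGT count of 1 became 0 with quantile normalization, the signal filter, the mean of all clusters, the intensity trend, the replicate block or the thresholds of the methods, and the GST count of 0 became 2 with quantile normalization and 1 with the intensity trend. The replicate block, fitted although the numbers do not pair the fish, gave 3 SULT entries for the difference between batches and 2 over both batches, and the counts within a batch stayed within 1.5 times. Leaving out 1 array gave, in batch 1, 5 to 9 UGT, 2 to 5 GST and 2 to 4 SULT entries, and in batch 2, 2 to 7, 0 to 5 and 1 to 3. Over both batches it gave 0 to 2, 0 to 3 and 1 to 2, and for the difference 7 to 10, 4 to 7 and 3 to 6. A group left with 1 array was assumed to vary like the other groups. With 2 fish per group, a difference that was not called may still exist.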
